A study of Mus musculus with 8 samples.

Results

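Livers of mice with chemically induced tumours that had received the high dose of Diwu Yanggan capsules (DWYG), a herbal preparation, were compared with livers of untreated tumour-bearing mice. The comparison used 4 of the 8 bulk RNA sequencing libraries of the series, 2 of the group DWYG-H and 2 of the group DEN+CCl4 (called the model here). Of 17164 genes in the table, the 11606 with an FPKM (reads scaled for gene length and sequencing depth) of at least 1 in 2 or more of the 8 libraries were examined. All mice were male C57BL/6. Model mice were injected with the carcinogen diethylnitrosamine (DEN, 0.67%) at 2 weeks of age. From 8 weeks of age they were given 2 injections a week of the liver toxin carbon tetrachloride (CCl4, 20% in olive oil). DWYG-H mice had the same DEN and CCl4 and, from 17 weeks, 2 times the clinical equivalent dose of DWYG. The DWYG-M group had the same agents with 1 clinical equivalent dose. The control group was given saline instead of DEN, and no CCl4 or DWYG is listed for it. Whether the controls were given olive oil is not stated. Livers were taken at 22 weeks from groups of 6 mice, and 2 livers a group, chosen at random, were sequenced. CCl4 continued to the end, so DWYG-H against model compares treated with untreated injury and not recovery after it. The title of the study names the control of YAP signalling as its subject.

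DEN damages hepatocyte DNA, and CCl4 is turned by the enzyme CYP2E1 into a radical that kills hepatocytes around the central vein. Repeated injury brings scarring by activated stellate cells and a ductular reaction, in which cells with markers of bile duct epithelium spread into the liver. YAP and TAZ are transcriptional co-activators that work with TEAD factors and are held in the cytoplasm by the Hippo kinases. In liver their activity is known to favour duct-like cell states, matrix production and tumour growth.

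Each library summed to between 17345627 and 19191382 expected counts, and between 10101 and 11556 genes reached an FPKM of 1. The 2 model libraries differed more from each other than those of any other group. The median absolute log2 difference between replicates was 0.31 in the model, 0.20 in DWYG-H, 0.18 in DWYG-M and 0.22 in the controls. In the model, 6.4% of genes differed between replicates by more than 1 on the log2 scale, against 3.36% in DWYG-H. Albumin (Alb), the main hepatocyte secretory protein, stood at 39625 and 60316 FPKM in the model and 54658 and 44679 in DWYG-H, a level typical of liver tissue. Cd24a and Mmp7, the markers given for the comparison, were detected in all 8 libraries.

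No gene passed an adjusted p of 0.05 in edgeR's quasi-likelihood test of DWYG-H against model, in either direction (0 of 11606 genes, 0% higher and 0% lower). Without adjustment, 406 genes (3.5%) were higher and 579 (4.99%) lower at p under 0.05. Every list count at unadjusted p below is to be read beside these shares over all genes. DESeq2, another test on the same counts, called 38 genes higher (0.327%) and 82 lower (0.707%) at an adjusted p under 0.05. The FPKM values of the 2 groups did not overlap for 1236 genes (10.6%) that were higher in both DWYG-H libraries and for 2691 (23.2%) that were lower. On counts scaled by TMM, edgeR's correction for library composition, the split was even, with 1996 genes (17.2%) higher and 2004 (17.3%) lower. The balance of higher and lower genes thus differed between the 2 scalings. Over all genes tested the median log2 difference was −0.01, and 6027 of 11606 genes were below 0. Since no gene was called, every gene below is described by its values in each library, with the edgeR log2 fold change, its standard error (SE) and its adjusted p.

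Cd24a and Ehf had the smallest p on the lower side. Cd24a, a surface sialoglycoprotein of progenitor and duct cells, stood at 19.6 and 17.6 FPKM in the model and at 5.70 and 6.31 FPKM in DWYG-H. Both treated livers were thus below both model livers, and above the controls at 2.44 and 1.90 FPKM. Its log2 fold change was −1.57 (SE 0.16, 95% interval −1.94 to −1.21, edgeR adjusted p 0.0562), and DESeq2 gave an adjusted p of 1.541e-07. Ehf, an ETS transcription factor of epithelia, stood at 2.94 and 2.46 FPKM in the model and 0.56 and 0.51 FPKM in DWYG-H, with 0.24 and 0.23 FPKM in the controls. Its log2 fold change was −2.29 (SE 0.23, edgeR adjusted p 0.0562), a level 20.5% of that in the model. The 2 groups did not overlap, and no other of the 11606 genes had an adjusted p as low.

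Mmp7 encodes matrilysin, a matrix metalloproteinase made by injured duct epithelium and carcinomas. It stood at 17.1 and 19.6 FPKM in the model, at 1.56 and 3.33 FPKM in DWYG-H and at 0.09 FPKM in both control livers. The treated livers lay well below the model but above the controls. The log2 fold change was −2.85 (SE 0.35, 95% interval −3.66 to −2.04, edgeR adjusted p 0.113). Sprr1a, a small proline-rich protein of squamous and stressed epithelium, stood at 18.4 and 17.9 FPKM in the model, at 4.26 and 4.27 FPKM in DWYG-H and was listed at 0 in both controls. Its log2 fold change was −2.03 (SE 0.28, edgeR adjusted p 0.2498). Plat, tissue plasminogen activator, stood at 6.77 and 7.63 FPKM in the model and 2.44 and 2.63 FPKM in DWYG-H, a log2 fold change of −1.45 (SE 0.23, edgeR adjusted p 0.2498). In each of these genes the replicates of a group lay closer to each other than to any library of the other group.

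The other lower genes picked by smallest p, among genes with a mean of at least 5 FPKM in 1 group and no overlap, were Junb, Col5a2, Scara3, Kcne3, Epcam and Emp1. Junb, a subunit of the AP-1 transcription factor, stood at 49.98 and 40.7 FPKM in the model and 13.9 and 19.9 FPKM in DWYG-H, a log2 fold change of −1.36 (SE 0.21, edgeR adjusted p 0.2498). Kcne3, a potassium channel subunit of secretory epithelia, stood at 5.69 and 6.82 FPKM in the model and 1.35 and 1.44 FPKM in DWYG-H. Scara3, a scavenger receptor family member, stood at 5.74 and 7.03 FPKM in the model and 0.94 and 1.96 FPKM in DWYG-H. The log2 fold changes were −2.03 for Kcne3 and −2.08 for Scara3. The controls stood at 0.92 to 1.19 FPKM for Kcne3 and 0.89 to 1.03 FPKM for Scara3, and the second treated liver was well above them in Scara3. Emp1, an epithelial membrane protein, stood at 12.8 and 12.5 FPKM in the model and 5.26 and 6.15 FPKM in DWYG-H, still above the controls at 0.78 and 1.03 FPKM.

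**Figure D1:**
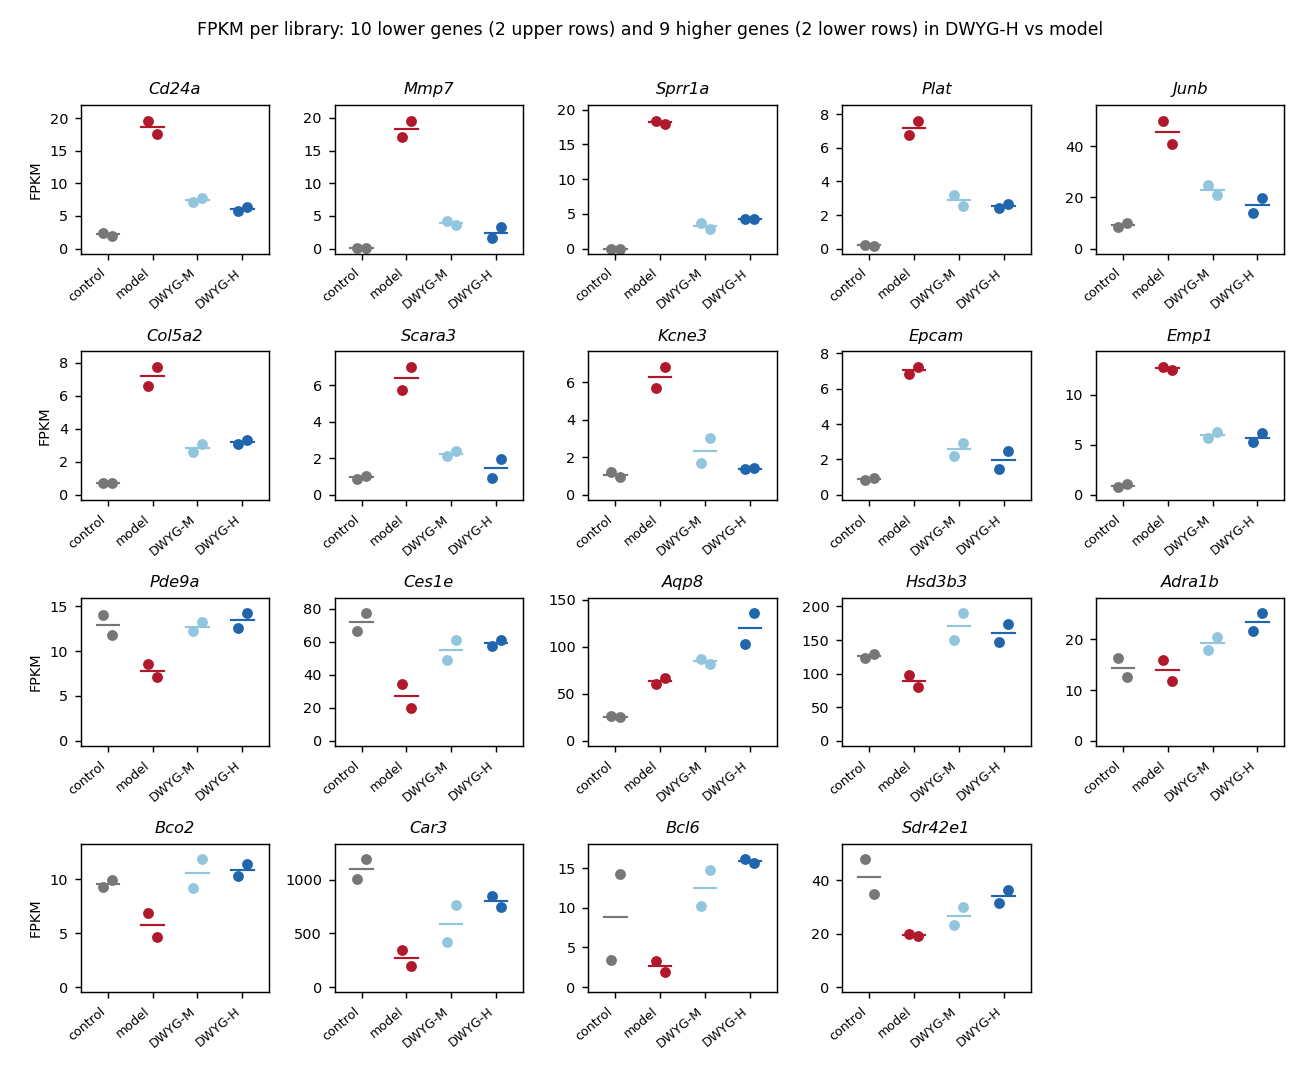
FPKM in each of the 8 libraries (points, with the mean of each group of 2 as a bar) for the 10 lower genes (2 upper rows) and 9 higher genes (2 lower rows) picked by smallest p. Genes with a mean under 5 FPKM in both groups, such as Ehf, were left out of the pick. Cd24a falls between 5.70 and 6.31 FPKM in DWYG-H against 17.6 and 19.6 FPKM in the model, and Car3 between 747 and 854 FPKM against 192 and 344 FPKM.

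Promoter sequence is shown for 4 genes because several of the lower genes are textbook targets of AP-1, the Fos and Jun dimer, or of the YAP partner TEAD. Windows from RefSeq on GRCm38.p6, an assembly other than the GRCm39 named for the reads, run from 250 bases before to 50 bases after a gene's start. They were searched on both strands for TGANTCA (AP-1, N any base) and GGAATG (TEAD). The 250 bases before the start are printed for Mmp7 and Sprr1a, for the antioxidant gene Srxn1 and for the YAP target Ankrd1, whose values are given below, with the matches in capitals. They were picked because they hold a match. Cd24a, Ehf and Plat had no window and could not be searched. The stretches lie at chr9:7691840-7692089 (plus strand) for Mmp7, chr3:92485882-92486131 (minus strand) for Sprr1a, chr2:152105274-152105523 (plus strand) for Srxn1 and chr19:36119845-36120094 (minus strand) for Ankrd1, each written 5′ to 3′ along its gene. The capitals mark TGANTCA in the first 3 and GGAATG in Ankrd1.
Mmp7: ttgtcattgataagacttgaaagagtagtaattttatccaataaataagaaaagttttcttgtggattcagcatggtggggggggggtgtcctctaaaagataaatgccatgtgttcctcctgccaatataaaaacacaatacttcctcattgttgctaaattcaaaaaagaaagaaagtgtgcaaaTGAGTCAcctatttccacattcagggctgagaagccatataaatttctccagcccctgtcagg
Sprr1a: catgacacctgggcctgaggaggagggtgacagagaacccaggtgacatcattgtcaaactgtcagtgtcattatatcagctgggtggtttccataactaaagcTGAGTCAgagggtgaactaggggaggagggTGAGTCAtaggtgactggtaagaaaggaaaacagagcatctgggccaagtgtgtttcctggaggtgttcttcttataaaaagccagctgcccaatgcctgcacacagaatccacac
Srxn1: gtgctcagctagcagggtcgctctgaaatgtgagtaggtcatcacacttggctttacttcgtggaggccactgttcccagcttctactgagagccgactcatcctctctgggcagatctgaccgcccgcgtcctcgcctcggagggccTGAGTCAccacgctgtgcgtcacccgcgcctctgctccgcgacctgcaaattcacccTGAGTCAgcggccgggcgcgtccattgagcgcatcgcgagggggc
Ankrd1: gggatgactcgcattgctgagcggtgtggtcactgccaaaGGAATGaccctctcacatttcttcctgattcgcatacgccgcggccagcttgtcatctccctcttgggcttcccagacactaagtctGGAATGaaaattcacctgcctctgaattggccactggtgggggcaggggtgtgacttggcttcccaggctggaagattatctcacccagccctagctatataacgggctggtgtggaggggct
Counted from 1 at the 5′ end, the match in Mmp7 lies at bases 188 to 194, those in Sprr1a at 105 to 111 and 135 to 141, those in Srxn1 at 149 to 155 and 206 to 212, and those in Ankrd1 at 41 to 46 and 128 to 133. None of the 4 stretches held a match of the other motif. A match is a description of the letters and not a binding site.

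Of all 32851 windows in the RefSeq table, 7.81% held TGANTCA and 14.7% held GGAATG. Among the tested genes with a window (9322), the shares were 6.51% and 14.5%. Of the 10 lower genes picked by smallest p, 6 had a window, and 4 of those (Mmp7, Sprr1a, Kcne3 and Emp1) held TGANTCA and 0 held GGAATG. That pick left out Ehf and Lox, whose means were under 5 FPKM in both groups. Among the 10 higher genes, 6 had a window, 1 held TGANTCA and 4 (Aqp8, Hsd3b3, Bco2 and Bcl6) held GGAATG. In the larger sets the shares on the 2 sides were alike: TGANTCA was found in 10.6% of the 454 lower genes with a window and in 11.9% of the 318 higher genes, and GGAATG in 17.0% and 18.6%.

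None of the 21 tested bile duct and ductular markers was called. At unadjusted p under 0.05, 13 were lower (4.99% of all genes were) and 0 higher, all 21 had a log2 fold change below 0, and the median was −0.998. The FPKM groups of 19 of the 21 did not overlap (lower), against 23.2% of all genes. Ehf and Epcam, named above for their small p, are on this list, so its counts are no independent evidence. Without each of the 4 libraries in turn, between 10 and 18 members were lower at unadjusted p. Fewer cells with these markers and less marker RNA per cell cannot be told apart in bulk tissue. Which cells held the RNA was not tested, and Ehf and Epcam are also on the list of fetal liver and liver tumour genes. Krt19, the keratin that marks bile ducts, stood at 10.1 and 8.54 FPKM in the model and 1.48 and 2.03 FPKM in DWYG-H. Both treated libraries were close to the higher of the controls (0.37 and 1.53 FPKM), with a log2 fold change of −2.35 (SE 0.46, edgeR adjusted p 0.2498). Epcam, the adhesion molecule of duct and progenitor cells, stood at 6.83 and 7.25 FPKM in the model and 1.47 and 2.45 FPKM in DWYG-H, a log2 fold change of −1.79. Krt7, a second duct keratin, stood at 3.22 and 4.45 FPKM in the model and 0.78 and 1.07 FPKM in DWYG-H. Sox9, the duct and progenitor transcription factor, was less apart, at 4.75 and 5.30 FPKM in the model and 1.69 and 3.84 FPKM in DWYG-H. Spp1 (osteopontin), which macrophages also make, stood at 293 and 430 FPKM in the model and 229 and 268 FPKM in DWYG-H. Hes1, a Notch target that is not on this list and was named after its values were seen, stood at 16.9 and 21.7 FPKM in the model. In DWYG-H it stood at 5.79 and 7.26 FPKM.

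Yap1 and Wwtr1, the genes for YAP and TAZ, are given before the targets of the 2 proteins. Yap1 stood at 24.03 and 24.4 FPKM in the model and 21.9 and 22.0 FPKM in DWYG-H, a log2 fold change of −0.09 (SE 0.14, 95% interval −0.42 to 0.24). Wwtr1, which encodes TAZ, stood at 9.02 and 7.58 FPKM in the model and 7.77 and 6.38 FPKM in DWYG-H, a log2 fold change of −0.16 (95% interval −0.55 to 0.23), and its groups overlapped. RNA levels do not report the phosphorylation or location of these proteins, through which Hippo signalling acts. Of 23 targets tested, none was called, and 11 were lower at unadjusted p under 0.05 (4.99% of all genes were) and 0 higher. Of the 23, 21 were below 0, and the median was −0.76. The size of that median depended on the scale and on single libraries. It was −0.403 with limma on log2(FPKM + 1), −0.508 with limma on log2(TPM + 1), −0.478 without model replicate 2 and −0.515 without DWYG-H replicate 2. Ankrd1, a muscle ankyrin repeat protein and a direct TEAD target, stood at 3.51 and 6.31 FPKM in the model. In DWYG-H it stood at 1.04 and 1.42 FPKM, a log2 fold change of −1.96 (SE 0.40, edgeR adjusted p 0.2498). Dropping the first model liver moved this estimate to −2.398, and dropping the second moved it to −1.349. The second model liver, the higher in Ankrd1, was also high in Tpm2 and Des, which muscle expresses (values below). The part of muscle tissue in the Ankrd1 difference was not tested. Fstl1, a secreted glycoprotein, stood at 9.52 and 13.6 FPKM in the model and 4.61 and 5.31 FPKM in DWYG-H, a log2 fold change of −1.18. The best known targets were less separated: Ccn1 (CYR61) stood at 9.44 and 10.6 FPKM in the model and 3.29 and 5.56 FPKM in DWYG-H, and its interval reached from −2.53 to 0.27. Ccn2 (CTGF) stood at 10.5 and 11.4 FPKM in the model and 7.34 and 4.42 FPKM in DWYG-H, with an interval from −2.67 to 0.97. The second control liver, at 16.7 FPKM, was above every model library in Ccn1. Without DWYG-H replicate 2, 6 targets were lower at unadjusted p, and without replicate 1, 7.

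Of the 27 tested genes of the Hippo pathway itself, 3 were lower and 0 higher at unadjusted p under 0.05. Over all genes, 4.99% were lower and 3.5% higher. The median of the list was −0.16. The lower count was 1 without model replicate 2 and 1 without either DWYG-H library. Tead2, one of the TEAD factors, stood at 1.37 and 2.05 FPKM in the model and 0.87 and 0.74 FPKM in DWYG-H, a log2 fold change of −1.02 (edgeR adjusted p 0.547). Amotl1, which binds YAP at cell junctions, stood at 2.28 and 1.92 FPKM in the model and 1.57 and 1.38 FPKM in DWYG-H. The median of all genes was −0.01, and 10 of the 27 were above 0. The FPKM groups did not overlap for 37.04% of the list (lower) and 0% (higher), against 23.2% and 10.6% of all genes. With limma on log2(TPM + 1) the median was −0.253 for the list and −0.106 for all genes.

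Genes of fetal liver and liver tumours had a median log2 fold change of −0.75 over 24 tested members, with 9 lower at unadjusted p under 0.05 and 0 higher. Single libraries moved the median, to −1.174 without model replicate 1, −0.297 without model replicate 2 and −1.339 without DWYG-H replicate 1. Cd24a, Mmp7, Ehf, Sprr1a and Plat are on this list and were put there with their values known, so the count is no independent evidence. Afp, alpha-fetoprotein, did not separate the groups. It stood at 143 and 579 FPKM in the model and 158 and 111 FPKM in DWYG-H, and its interval ran from −2.87 to 0.02. Gpc3, glypican 3, stood at 105 and 127 FPKM in the model and 72.5 and 46.6 FPKM in DWYG-H, a log2 fold change of −0.91 (SE 0.37, edgeR adjusted p 0.571). All 4 libraries held both genes far above the controls, at 0.23 and 0.28 FPKM for Afp and 0.18 and 0.54 FPKM for Gpc3. The summed FPKM of the list was 2780 and 4349 in the model and 2536 and 1385 in DWYG-H.

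Of 33 tested collagen and matrix genes, none was called, 22 were lower at unadjusted p under 0.05 and 0 higher, against 4.99% of all genes lower. The FPKM of 29 did not overlap (lower), against 23.2% of all genes. The median log2 fold change was −0.90, with 2 members above 0. Without model replicate 2 the count was 13 and the median −0.541, and without DWYG-H replicate 1 the count was 12. Col3a1, a fibrillar collagen of scar, stood at 49.9 and 72.3 FPKM in the model and 23.3 and 25.8 FPKM in DWYG-H, a log2 fold change of −1.28 (SE 0.26, edgeR adjusted p 0.2498). Col1a1, the main scar collagen, was less even, at 15.1 and 34.9 FPKM in the model and 6.92 and 12.6 FPKM in DWYG-H. Col5a2, a minor fibrillar collagen, stood at 6.62 and 7.76 FPKM in the model and 3.09 and 3.30 FPKM in DWYG-H, a log2 fold change of −1.121 (SE 0.18). All 3 collagens stayed above the controls, where the highest values were 4.77, 0.82 and 0.69 FPKM. Lox, the enzyme that crosslinks collagen, stood at 2.07 and 2.28 FPKM in the model and 0.67 and 0.83 FPKM in DWYG-H. Eln, elastin, stood at 7.65 and 14.4 FPKM in the model and 3.44 and 3.87 FPKM in DWYG-H.

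Among 23 matrix proteases and their inhibitors, 10 were lower and 0 higher at unadjusted p under 0.05, with a median of −0.56. Mmp7, a marker given for the comparison, and Plat are on this list, so the count is no independent evidence. Timp1, an inhibitor of matrix metalloproteinases, stood at 8.33 and 8.54 FPKM in the model and 2.49 and 3.91 FPKM in DWYG-H. Mmp12, the macrophage elastase, did not follow, at 11.7 and 9.65 FPKM in the model and 9.87 and 13.4 FPKM in DWYG-H.

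Of 20 tested markers of stellate cells and myofibroblasts, 10 were lower and 1 higher at unadjusted p, with a median of −0.62. Without model replicate 2 the lower count was 5 and the median −0.304, and without DWYG-H replicate 1 it was 4. Acta2, smooth muscle actin of activated stellate cells, stood at 12.6 and 17.3 FPKM in the model and 5.37 and 6.02 FPKM in DWYG-H, a log2 fold change of −1.36 (SE 0.34, edgeR adjusted p 0.348). Vim, vimentin, stood at 51.5 and 57.2 FPKM in the model and 32.3 and 35.2 FPKM in DWYG-H. Tpm2 and Des, which are also muscle genes, rested on 1 model library: Tpm2 stood at 2.45 and 22.2 FPKM and Des at 2.04 and 9.59 FPKM in the model, against 1.41 and 2.21 FPKM and 1.5 and 1.77 FPKM in DWYG-H.

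**Figure D2:**
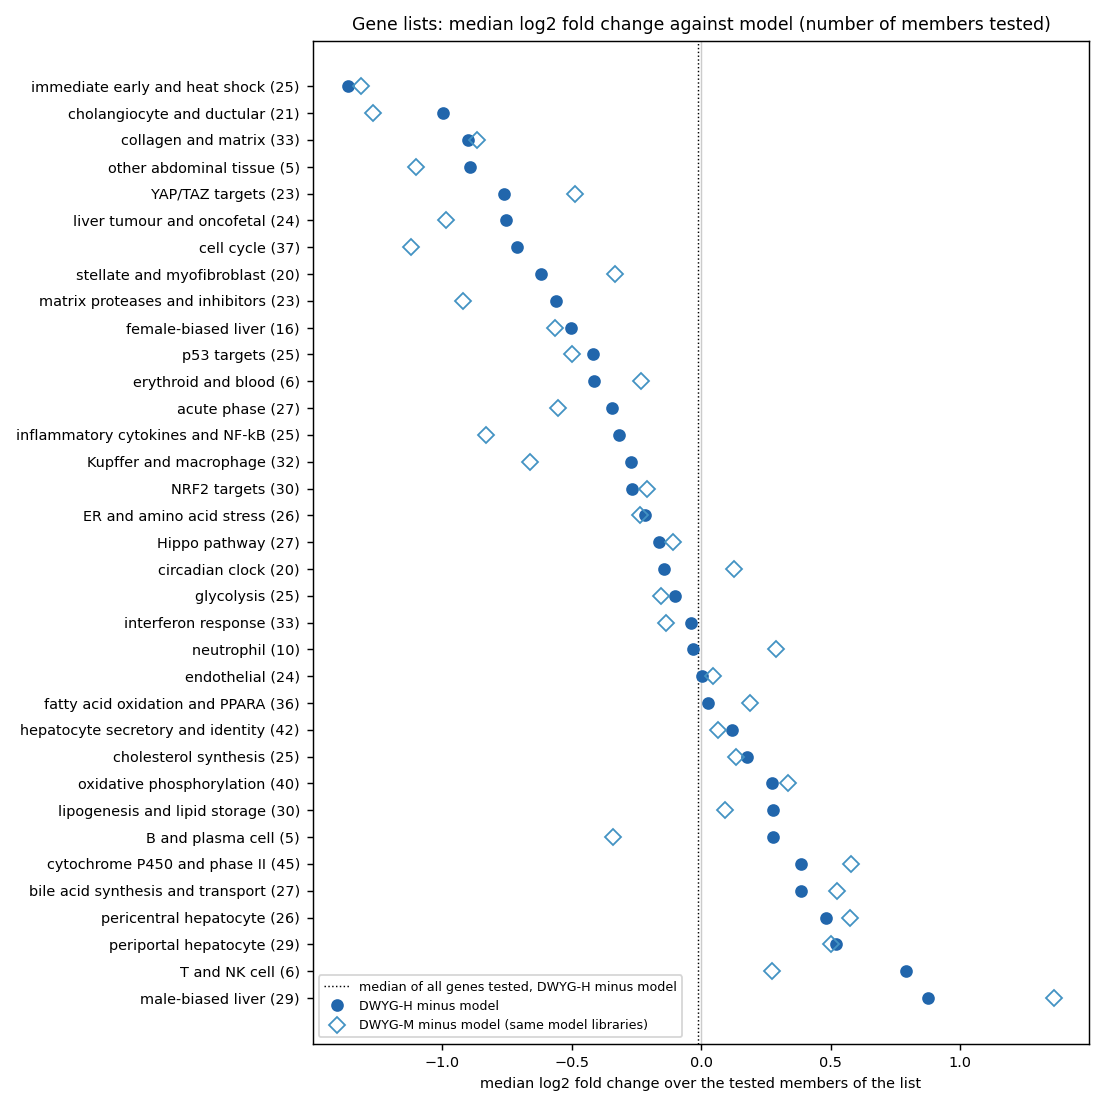
Median log2 fold change over the tested members of each gene list, for DWYG-H against model (filled circles) and DWYG-M against the same model libraries (open diamonds), with the median of all genes as a dotted line. The duct list lies at −0.998 and the male-biased list at 0.88 for DWYG-H, and the sharing of the model libraries ties the 2 sets of points to each other.

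Fast-responding stress and growth genes (immediate early and heat shock) had the lowest median of the lists, −1.36 over 25 tested members, with 18 lower and 0 higher at unadjusted p. This list depended on model replicate 1: without it 8 were lower and the median was −0.65, and without model replicate 2, 23 were lower and the median was −1.65. Without either DWYG-H library 11 were lower. Atf3, a stress-induced factor, stood at 123 and 7.71 FPKM in the model and 3.26 and 3.55 FPKM in DWYG-H. Fos stood at 47.7 and 3.61 FPKM in the model and 1.13 and 3.16 FPKM in DWYG-H. Jun stood at 98.1 and 16.4 FPKM in the model and 10.1 and 10.5 FPKM in DWYG-H. The groups did not overlap in any of the 3, but the second model liver was far nearer to the treated livers than to the first. Junb, above, and Ier3 did not share this spread, Ier3 being at 11.4 and 14.97 FPKM in the model and 3.41 and 3.44 FPKM in DWYG-H.

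Of 30 tested targets of NRF2, the regulator of the antioxidant response, 9 were lower and 1 higher at unadjusted p, with a median of −0.27. With any 1 of the 4 libraries left out, between 8 and 12 were lower and the median lay between −0.144 and −0.41. Srxn1 (sulfiredoxin) stood at 136 and 65.0 FPKM in the model and 33.2 and 37.0 FPKM in DWYG-H, a log2 fold change of −1.43 (SE 0.27, edgeR adjusted p 0.2498). Nqo1, a quinone reductase, stood at 24.7 and 15.2 FPKM in the model and 8.35 and 8.02 FPKM in DWYG-H, a log2 fold change of −1.14. Slc7a11, the cystine transporter, stood at 10.1 and 3.92 FPKM in the model and 1.83 and 2.05 FPKM in DWYG-H. The model replicates differed by more than 1.5 times in all 3 genes, yet both were above both treated livers. Among 26 genes of endoplasmic reticulum and amino acid stress, 6 were lower and 0 higher at unadjusted p, with a median of −0.22, and 3 were lower without DWYG-H replicate 2. Leaving out model replicate 1 gave a median of −0.401, and leaving out the second model library gave −0.09. Ddit3 (CHOP), a stress-induced factor that favours cell death, stood at 58.5 and 27.3 FPKM in the model and 9.07 and 11.1 FPKM in DWYG-H, where it matched the controls at 9.11 and 13.4 FPKM. Its log2 fold change was −1.92 (SE 0.39, edgeR adjusted p 0.2498). Fgf21, a stress hormone of liver, stood at 107 and 6.66 FPKM in the model and 6.54 and 1.99 FPKM in DWYG-H, so only model replicate 1 was high.

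Of 37 tested cell cycle genes, 7 were lower and 0 higher at unadjusted p, with 35 below 0 and a median of −0.71. The treated livers differed from each other: without DWYG-H replicate 1, 17 were lower and the median was −1.146, and without DWYG-H replicate 2, 0 were and it was −0.347. Without model replicate 2 the count was 2. Mki67, the proliferation marker Ki-67, stood at 4.23 and 3.10 FPKM in the model and 3.84 and 1.60 FPKM in DWYG-H, which overlapped. Kif20a, a mitotic kinesin, stood at 5.38 and 4.49 FPKM in the model and 2.65 and 1.2 FPKM in DWYG-H. Mcm6, a subunit of the replicative helicase, stood at 9.18 and 9.89 FPKM in the model and 6.06 and 4.94 FPKM in DWYG-H. Of 25 targets of p53, 7 were lower and 0 higher at unadjusted p, with a median of −0.42. Without model replicate 2, 4 were lower and the median was −0.277, and without DWYG-H replicate 2, 1 was and it was −0.216. Btg2, an antiproliferative target, stood at 79.2 and 47.5 FPKM in the model and 27.9 and 23.6 FPKM in DWYG-H.

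Of 32 Kupffer cell and macrophage genes, none was called, 5 were lower and 1 higher at unadjusted p, with a median of −0.27. The lower count was 10 without model replicate 1, 8 without model replicate 2 and 2 without DWYG-H replicate 1. Cd14, the lipopolysaccharide co-receptor, stood at 28.9 and 37.0 FPKM in the model and 16.6 and 15.3 FPKM in DWYG-H. C1qb, a complement subunit made by macrophages, stood at 139 and 117 FPKM in the model and 85.0 and 95.6 FPKM in DWYG-H. In DWYG-H replicate 2, genes induced by interferon gamma and T cell markers were high. Cxcl9, a chemokine that attracts T cells, stood at 7.12 and 4.31 FPKM in the model and 4.70 and 89.9 FPKM in DWYG-H. Cd3g, a subunit of the T cell receptor complex, stood at 1.89 and 0.89 FPKM in the model and 0.83 and 5.70 FPKM in DWYG-H. Gbp2, an interferon-induced GTPase, stood at 5.46 and 2.91 FPKM in the model and 2.55 and 21.4 FPKM in DWYG-H. The summed FPKM of the 15 listed T and NK cell genes was 28.4 and 23.7 in the model and 22.7 and 81.4 in DWYG-H, with 0 of the 15 at 0 in all 4 libraries. Over the 6 tested genes of that list the median log2 fold change was 0.79, and −0.24 without DWYG-H replicate 2. Interferon response genes as a whole were near level, with 2 of 33 lower and 0 higher, against 4.99% and 3.5% of all genes. Their median was −0.04, with −0.152 without DWYG-H replicate 2 and 0.158 without model replicate 2. Among 25 inflammatory cytokine and NF-kB genes, 2 were lower and 1 higher, with a median of −0.32. Without DWYG-H replicate 1, 0 were lower and 2 higher with a median of −0.007, without DWYG-H replicate 2 the median was −0.623, and without model replicate 2, 5 were lower. Cxcl1, a neutrophil chemokine, stood at 86.6 and 35.8 FPKM in the model and 26.0 and 28.5 FPKM in DWYG-H.

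Of 24 endothelial genes, 1 was lower and 0 higher at unadjusted p, against 4.99% and 3.5% of all genes. Their median was 0.00 and lay between −0.147 and 0.145 with 1 library left out. Of 10 neutrophil genes, 0 were lower and 1 higher, and the median of −0.03 became 0.703 without model replicate 1. Of 5 B and plasma cell genes, 0 were either. Of 6 red cell genes, 0 were lower and 1 higher (Alas2, the heme synthesis enzyme of red cells, at 41.6 and 25.1 FPKM in the model and 58.1 and 58.5 FPKM in DWYG-H), 5 were below 0 and the median was −0.415. Without model replicate 1, 4 of the 6 were lower with a median of −0.745, and without model replicate 2 the median was 0.094. Markers of other abdominal tissue were also read. Of the exocrine pancreas genes on that list, Cpb1, Pnlip and Prss2 were at 0 in all 4 libraries. Amy2a5 and Cela2a were not at 0 throughout, but were below the FPKM filter and no higher than 0.89 FPKM in these libraries. Cela1 passed the filter. The list's summed FPKM was 78.7 and 124 in the model and 99.7 and 50.1 in DWYG-H, and 1 of 5 tested members was lower at unadjusted p. That was Msln, a marker of the mesothelium that covers the liver, at 2.13 and 2.76 FPKM in the model and 0.44 and 1.32 FPKM in DWYG-H. The part of such tissue in the results was not tested.

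**Figure D3:**
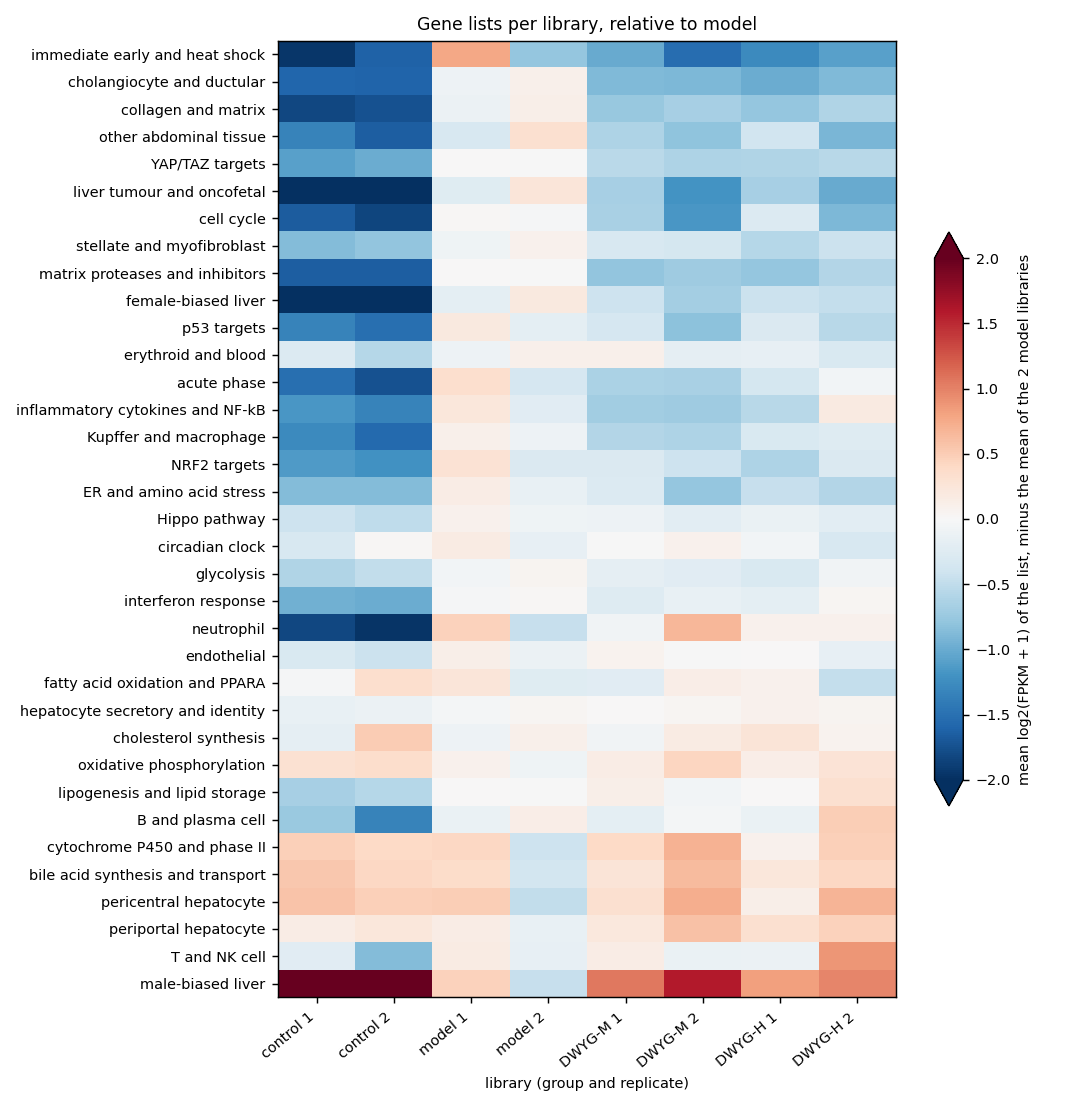
Mean log2(FPKM + 1) of each gene list in each of the 8 libraries, minus the mean of the 2 model libraries (blue lower, red higher). The duct, matrix and YAP/TAZ target lists are lower in both DWYG-H libraries, while the T and NK cell list is high in DWYG-H replicate 2 alone.

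On the higher side Hsd3b5 had the smallest p. Hsd3b5, a male-specific steroid dehydrogenase of hepatocytes, stood at 0.86 and 0.45 FPKM in the model and 3.34 and 4.49 FPKM in DWYG-H. Both treated livers were above both model livers, but far below the controls at 241 and 171 FPKM. Its log2 fold change was 2.65 (SE 0.32, 95% interval 1.91 to 3.40, edgeR adjusted p 0.113, DESeq2 adjusted p 3.18e-08). Hsd3b5 did not enter the 10 higher genes picked by smallest p because its mean was under 5 FPKM in both groups. Those described here were Pde9a, Ces1e, Aqp8, Hsd3b3, Adra1b, Bco2, Car3, Bcl6 and Sdr42e1, with log2 fold changes from 0.83 for Adra1b to 2.60 for Bcl6 and edgeR adjusted p from 0.2498 to 0.2778. Bcl6, a repressor of female-biased liver genes, stood at 3.29 and 1.91 FPKM in the model and 16.1 and 15.6 FPKM in DWYG-H. The 2 controls were far apart, at 3.38 and 14.2 FPKM. Car3, a carbonic anhydrase abundant in male liver, stood at 344 and 192 FPKM in the model and 854 and 747 FPKM in DWYG-H, against 1012 and 1194 FPKM in the controls. Ces1e, a carboxylesterase, stood at 34.3 and 20.0 FPKM in the model and 57.4 and 61.2 FPKM in DWYG-H, near the controls at 66.5 and 77.5 FPKM. Aqp8, a water channel of the bile canaliculus, stood at 60.5 and 67.1 FPKM in the model and 103 and 136 FPKM in DWYG-H, above the controls at 26.3 and 25.4 FPKM.

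Of 29 tested male-biased liver genes, 9 were higher and 0 lower at unadjusted p under 0.05, and the FPKM of 19 did not overlap (higher), against 10.6% of all genes. The median log2 fold change was 0.88. It was 0.584 with the Mup genes left out and 0.572 with limma on log2(TPM + 1), and 0.603 without model replicate 2. Without model replicate 1, 17 were higher, and without DWYG-H replicate 2, 3 were. Slco1a1, an organic anion uptake transporter, stood at 13.0 and 4.36 FPKM in the model and 18.8 and 22.7 FPKM in DWYG-H, against 170 and 153 FPKM in the controls. Mup3, one of the major urinary proteins, stood at 3669 and 999 FPKM in the model and 4179 and 4785 FPKM in DWYG-H, and its copies are so alike that the counts of single Mup genes are uncertain. The summed FPKM of the list was 19540 and 9148 in the model, 22890 and 22020 in DWYG-H and 139400 and 142200 in the controls. The gap between treated and control livers was thus far wider than that between treated and model livers. Among 16 tested female-biased genes, 3 were lower and 0 higher, with a median of −0.50 (6 lower without model replicate 1, and a median of −0.234 without model replicate 2). Acot3, an acyl-CoA thioesterase on that list, stood at 4.31 and 2.53 FPKM in the model and 0.72 and 0.51 FPKM in DWYG-H, below the controls at 0.91 and 1.82 FPKM.

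Of 27 genes of bile acid synthesis and transport, 7 were higher and 1 lower at unadjusted p, with a median of 0.39. The count of higher genes was 13 without model replicate 1, 2 without model replicate 2 and 2 without DWYG-H replicate 2, with medians of 0.766, 0.097 and 0.225. Cyp8b1, the 12-alpha-hydroxylase that sets cholic acid output, stood at 36.1 and 22.8 FPKM in the model and 92.9 and 106 FPKM in DWYG-H, a log2 fold change of 1.83 (SE 0.47, edgeR adjusted p 0.351). Slc10a1 (NTCP), the bile acid uptake carrier, stood at 179 and 120 FPKM in the model and 210 and 274 FPKM in DWYG-H. Abcc4, an export pump that injured hepatocytes induce, was the member lower at unadjusted p, at 7.86 and 3.99 FPKM in the model and 1.82 and 2.29 FPKM in DWYG-H. Cyp7a1, the rate-limiting enzyme, overlapped, with DWYG-H at 15.2 and 59.0 FPKM and the model at 24.7 and 22.3 FPKM.

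Of 29 periportal hepatocyte genes, 12 were higher and 0 lower at unadjusted p, with a median of 0.52, with 4 higher without model replicate 2 and 1 without DWYG-H replicate 2. Sds, a serine dehydratase of amino acid breakdown, stood at 90.7 and 77.9 FPKM in the model and 119 and 143 FPKM in DWYG-H. Of 26 pericentral genes, 3 were higher and 1 lower, with a median of 0.48. Here model replicate 2 was low, since 16 were higher without model replicate 1 and 0 without model replicate 2, with 7 and 1 without the first and second DWYG-H library. Without model replicate 1 the median was 1.085 and without model replicate 2 it was 0.186. Cyp2e1, the enzyme that activates CCl4, stood at 1506 and 678 FPKM in the model and 2169 and 2355 FPKM in DWYG-H, below the controls at 4615 and 5500 FPKM. Its log2 fold change was 1.14 (SE 0.38, edgeR adjusted p 0.472). Cyp2a5, which injury induces, was the member lower at unadjusted p, at 366 and 201 FPKM in the model and 60.0 and 151 FPKM in DWYG-H. Among 45 cytochrome P450 and conjugating enzymes, 7 were higher and 1 lower, with a median of 0.39. The count of higher genes was 20 without model replicate 1, 1 without model replicate 2 and 2 without DWYG-H replicate 2, with medians of 0.649, 0.174 and 0.181. In the pericentral and P450 lists more genes were apart when the second model liver alone stood for the model.

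All 40 tested subunits of the respiratory chain had a log2 fold change above 0, with a median of 0.27 and a highest value of 0.46. The FPKM of 24 did not overlap (higher), against 10.6% of all genes, but 2 of 40 were higher at unadjusted p, near the 3.5% of all genes. On TPM the median was 0.157. Cox7b, a subunit of cytochrome oxidase, stood at 125 and 95.2 FPKM in the model and 152 and 137 FPKM in DWYG-H, next to the controls at 156 and 133 FPKM. Fatty acid oxidation genes centred on 0, with a median of 0.03 (−0.11 on TPM) and 3 of 36 lower at unadjusted p (8 without DWYG-H replicate 1, with a median of −0.259, and 1 without replicate 2, with a median of 0.239). Of 30 lipogenesis and lipid storage genes, 5 were higher and 0 lower, with a median of 0.28, and the higher count was 10 without DWYG-H replicate 1 and 2 without replicate 2, where the median was −0.022. Scd1, the stearoyl-CoA desaturase, stood at 467 and 474 FPKM in the model and 507 and 2781 FPKM in DWYG-H, and Srebf1, its regulator, at 36.0 and 35.7 FPKM against 37.3 and 127 FPKM. In both, DWYG-H replicate 1 was near the model. Mlxipl (ChREBP), which responds to glucose, stood at 34.0 and 15.1 FPKM in the model and 43.2 and 56.0 FPKM in DWYG-H, high in both treated livers. Of 25 glycolysis genes, 3 were lower and 0 higher, with a median of −0.10 (7 lower without model replicate 1, and a median of 0.037 without model replicate 2). Of 25 cholesterol synthesis genes, 2 were higher and 0 lower, with a median of 0.18. That median was −0.013 without model replicate 1, 0.416 without model replicate 2 and 0.011 without DWYG-H replicate 1. Of 42 genes of hepatocyte secretion and identity, 2 were higher and 0 lower, with a median of 0.12 (0.006 without model replicate 1 and 0.344 without model replicate 2), and Alb itself had a log2 fold change of 0.03 (SE 0.45).

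In the acute phase list, 6 of 27 genes were lower and 2 higher at unadjusted p, with a median of −0.35. Without DWYG-H replicate 1, 3 were lower, and without replicate 2, 2 were. The higher genes were both hepcidins. Hamp2 stood at 12.3 and 6.18 FPKM in the model and 69.7 and 187 FPKM in DWYG-H, a log2 fold change of 3.87 (SE 0.90, edgeR adjusted p 0.312), above the controls at 9.60 and 8.06 FPKM. Hamp, the hormone that limits iron export, stood at 1046 and 413 FPKM in the model and 746 and 2485 FPKM in DWYG-H, which overlapped. Hamp and Hamp2 are close copies of each other, so reads may have been shared between them. Osmr, the oncostatin M receptor, was among the lower genes, at 4.37 and 4.36 FPKM in the model and 2.37 and 2.56 FPKM in DWYG-H.

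Clock genes are given because their levels in liver vary over the day and the time of day of sacrifice is not given in the sources used here. Of 20 tested, 3 were lower and 2 higher at unadjusted p, with a median of −0.14. The sign of the median turned with single libraries, to 0.439 without model replicate 1 and 0.232 without DWYG-H replicate 2, against −0.424 without DWYG-H replicate 1. Nr1d1 (REV-ERB alpha) stood at 17.2 and 22.4 FPKM in the model and 5.60 and 6.75 FPKM in DWYG-H. Dbp, a clock output factor, stood at 3.62 and 25.2 FPKM in the model and 2.59 and 1.63 FPKM in DWYG-H, with 9.43 and 40.8 FPKM in the controls. Replicates of the model and of the controls were thus far apart in Dbp, and the treated pair was low in both genes. The part of time of day in the other results was not tested.

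**Figure D4:**
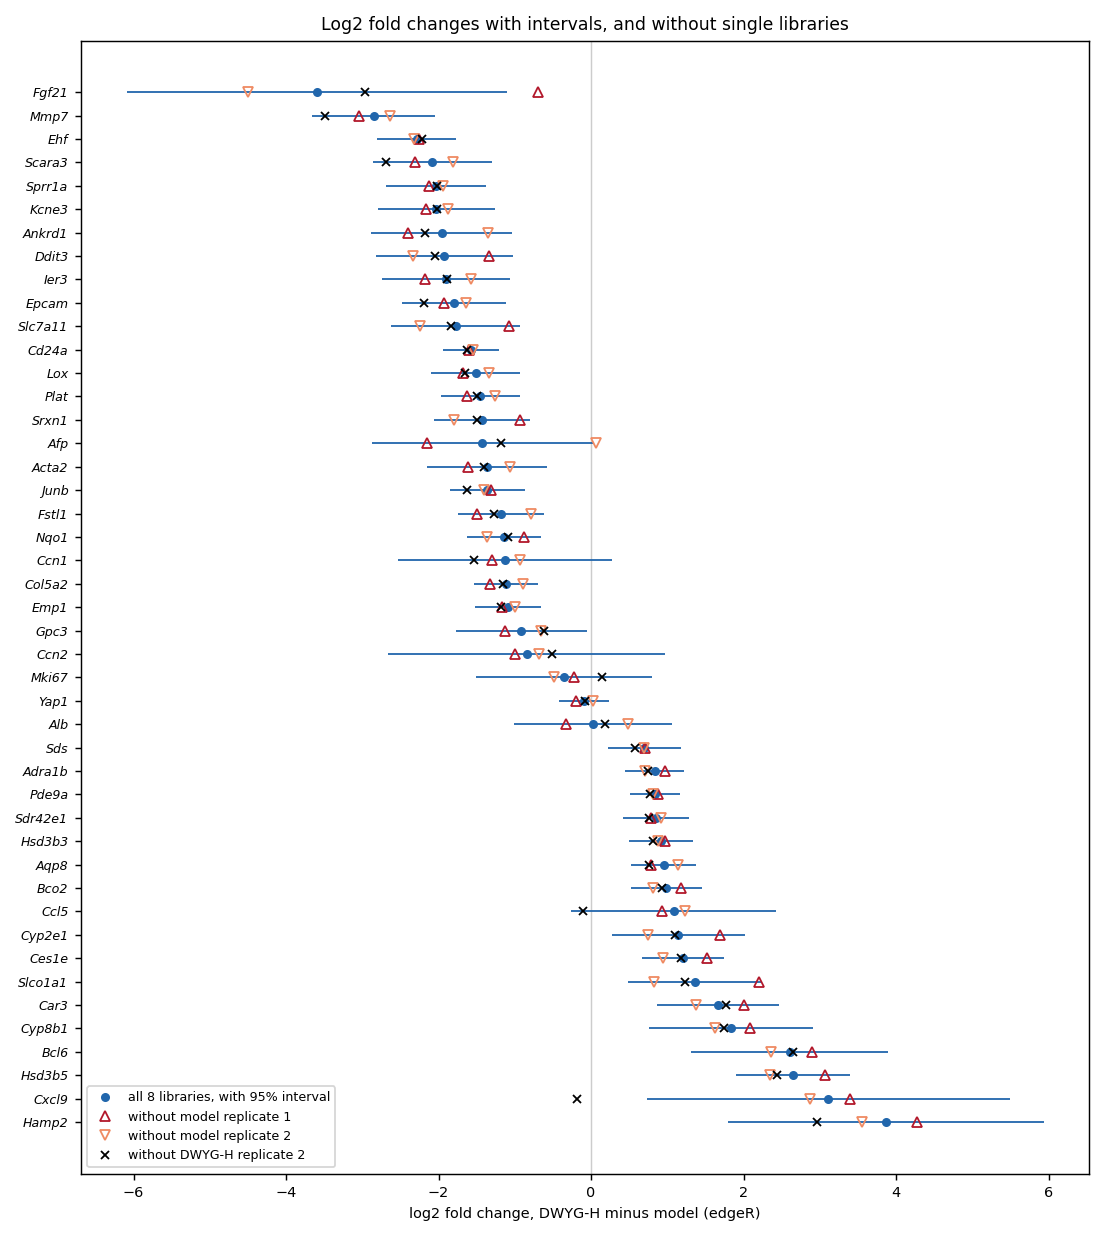
Log2 fold changes of DWYG-H against model for named genes, with their 95% intervals over all 8 libraries, and the values without model replicate 1, model replicate 2 or DWYG-H replicate 2 (open and crossed marks). Cd24a and Ehf keep close to −1.57 and −2.29 under every omission shown, while Alb spans 0.

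The 2 doses were then set against each other, a contrast that leaves out the model libraries, although these enter the estimate of the spread in the fit of all 8 libraries. No gene was called by edgeR between DWYG-H and DWYG-M (0 of 11606 genes, 0%), and at unadjusted p under 0.05, 133 genes (1.15%) were higher and 60 (0.517%) lower in DWYG-H. DESeq2 called 5 (0.0431%): Cyp4a12a, Cyp4a12b and Hsd3b5 lower and Mmp12 and Xlr3a higher in DWYG-H, genes that are named for these calls after their values were seen. The smallest edgeR p was that of Cyp4a12a, a male-specific fatty acid hydroxylase, at 103 and 80.3 FPKM in DWYG-M and 33.1 and 36.1 FPKM in DWYG-H. The log2 difference was −1.40 (SE 0.18, 95% interval −1.82 to −0.99, edgeR adjusted p 0.534). The model livers stood at 33.9 and 34.1 FPKM, so DWYG-H was level with them. Hsd3b5 stood at 12.2 and 16.0 FPKM in DWYG-M and 3.34 and 4.49 FPKM in DWYG-H, a log2 difference of −1.84 (SE 0.26, edgeR adjusted p 0.534). Mmp12 stood at 4.32 and 5.04 FPKM in DWYG-M and 9.87 and 13.4 FPKM in DWYG-H, a log2 difference of 1.29. In Cyp4a12a, Hsd3b5 and Mmp12 the medium dose lay farther from the model than the high dose did. For the leading lower genes the 2 doses gave intervals that included 0: −0.68 to 0.06 for Cd24a, −1.50 to 0.15 for Mmp7 and −0.29 to 1.121 for Sprr1a. In Ehf the interval was −1.28 to −0.22, with DWYG-M at 0.96 and 0.80 FPKM and an edgeR adjusted p of 1.0. None of these values shows that the doses act alike.

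Against the same model libraries, the log2 fold changes for DWYG-M and DWYG-H were −1.27 and −1.57 for Cd24a, −1.54 and −2.29 for Ehf, −2.18 and −2.85 for Mmp7, and −2.45 and −2.03 for Sprr1a. In the list medians DWYG-M and DWYG-H stood at −1.27 and −0.998 for duct markers, −0.87 and −0.90 for collagen and matrix, −0.49 and −0.76 for YAP and TAZ targets, −1.120 and −0.71 for cell cycle genes, and 1.36 and 0.88 for male-biased genes. Because both comparisons use the same 2 model livers, a deviation of these livers enters both, and the nearness of the values is no separate evidence. The test of DWYG-M against model called 1 gene (0.00862%), Hsd3b5, with a log2 fold change of 4.50 (edgeR adjusted p 0.006498).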

How the data were processed

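Whole-liver RNA of 8 mice, 2 in each of 4 groups, was read as 1 table of 17164 genes. The deposited read counts were handled like those expected counts that share reads between genes, since about 90% of them are whole numbers and the others carry fractions, per the file headers and values. The deposited FPKM and TPM values are, per the file headers, the authors' values scaled for gene length and depth. The submitters' processing notes name GRCm39 as the build. Which aligner, counter, annotation and strand setting were used is not stated by these sources, so overlapping genes and close copies are uncertain. The 8 columns of normalized counts and 16 columns of group averages were not used.

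Expected counts were rounded and fitted with edgeR 4.0.16 (R 4.3.3): TMM scaling, a quasi-likelihood fit of 4 groups over 8 libraries, with 4 residual degrees of freedom, and Benjamini-Hochberg adjustment over the 11606 genes that reached 1 FPKM in 2 or more libraries. A call is an adjusted p under 0.05. Per the design text, 2 randomly chosen livers of each group were sequenced. The p-values set a difference between groups against the spread between livers within groups. That spread is estimated over all 4 groups and drawn towards the spread of the other genes. DESeq2 1.42.0 and limma 3.58.1 (on log2 values with a pseudocount of 1 or 0.1) gave alternatives. The test was checked on simulated data. FPKM carry no counting interval, and the number of libraries limits the precision.

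Genes were named by a rule: in each direction, called genes first, then those with the smallest p up to 10, at a mean of at least 5 FPKM in 1 group and no overlap of FPKM. To these came 14 fixed genes and, in each of 35 lists (918 different genes, of which 48 are on more than 1 list), the 2 members with the smallest p. Some items that the rule picks are not reported here. Other genes were named after their values were seen. The comparison, its members and the lists were chosen with earlier results of these data known. Lists are described by counts and medians, with no test. Promoter windows came from RefSeq on GRCm38.p6. Counts of list members without single libraries and non-overlap on scaled counts were alternatives chosen after seeing the data.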

Additional observations from a re-analysis of the deposited data

How the results depend on the processing

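edgeR's count of 0 called genes, higher and lower, held with RLE size factors, with Alb and the Mup genes left out, with genes of at least 5 FPKM, with the 4 compared libraries alone and with limma on log2(FPKM + 0.1). It became 38 higher and 82 lower with DESeq2 (5 between the doses), 3 lower (Sprr1a, Mmp7 and Cd24a) with limma on log2(FPKM + 1), 1 lower (Sprr1a) with limma on log2(TPM + 1), 1 higher (Hsd3b5) and 3 lower (Mmp7, Ehf and Cd24a) with no FPKM filter, and 2 lower (Ehf and Cd24a) at an adjusted p under 0.10. The cause was not tested. On TPM the median of all genes moved to −0.106. With 1 library left out, between 0 and 1 genes were higher, between 0 and 17 lower and between 0 and 2 apart between the doses. Without model replicate 1 the count was 1 higher (Slco1a1) and 6 lower (Mylpf, Tpm2, Slpi, Eln, Col6a3 and Des). Without model replicate 2 it was 17 lower, among them Atf3, Fos, Fosl2, Nr4a1, Srxn1, Cd24a and Ehf, and without DWYG-H replicate 1 it was 1 higher (Cxcl9), with 2 between the doses (Cxcl9 and Ubd). There a lone library is assumed to vary like the other groups. The replicate block gave 0 higher, 0 lower and 0 between the doses, with 487 higher and 644 lower at unadjusted p. The labels tie same-numbered libraries by a number alone, and with 2 livers a group the numbers were not taken to pair them. Their deviations correlated at 0.0778 between model and DWYG-H, 0.2552 between DWYG-M and DWYG-H, 0.2044 between control and model and −0.143 between model and DWYG-M.

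Of 88 named genes, 10 changed sign under some setting, and none of the 10 was called in the main test. Alb was −0.036 with limma on log2(TPM + 1) and −0.004 with genes of at least 5 FPKM. Over the omissions of 1 library, log2 fold changes ranged from −0.323 to 0.484 for Alb, −0.198 to 0.020 for Yap1, −2.149 to 0.067 for Afp, −1.124 to 0.149 for Mki67, −1.609 to 0.068 for Pglyrp1, −0.109 to 1.729 for Ccl5, −0.643 to 2.108 for Cd3g, −0.233 to 1.108 for Cd79b, −1.091 to 0.138 for Hba-a2 and −0.188 to 4.050 for Cxcl9. Without DWYG-H replicate 1 Alb was −0.132. Each library held 17345627 to 19191382 counts, and the number of livers limits every comparison.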

Other observations

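In 4 of the tested genes with an unadjusted p under 0.05, both libraries of one group were at 0. Genes at 0 in one group with a larger p were not listed. The 4 are given here after their values were seen. Zfp973, a zinc finger gene, was listed at 0 in both model livers and at 1.98 and 1.24 FPKM in DWYG-H, with 1.93 and 1.27 FPKM in the controls and 1.09 and 1.5 FPKM in DWYG-M. Against a floor of 3 counts in each library of the group at 0, Zfp973 was at least 10.6-fold higher in DWYG-H. Cox8b, a muscle form of a cytochrome oxidase subunit, was at 0 in both DWYG-H livers and at 1.73 and 27.0 FPKM in the model, at least 5.88-fold lower in DWYG-H against the same floor, and 1 model liver held most of it. Entpd4, a nucleotide hydrolase, was at 0 in both model livers and at 1.11 and 1.03 FPKM in DWYG-H, at least 19.1-fold higher, but was also at 0 in both controls and 1 DWYG-M liver. H2ac19, a histone gene, was at 0 in both DWYG-H livers, at least 1.96-fold lower.

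Tpm2 and Des, other genes that muscle expresses, were high in the same model liver as Cox8b, model replicate 2, at 22.2 FPKM for Tpm2 and 9.59 FPKM for Des.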
